A study of Mus musculus with 12 samples.

Results

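*Kit*, *Kitl*, *Sohlh1*, *Sohlh2* and *Taf4b* were followed in 3 fractions of sorted mouse spermatogonia and in unsorted testes. The 5 genes were chosen by name, with earlier results of these data known, from 36309 gene and transcript names on the array. Of these names 23615 carry a RefSeq symbol. Each was read by 1 of the 55681 probes. The study asked how gene expression differs between spermatogonia that respond differently to retinoic acid, and hybridised 12 Agilent 1-colour arrays, 3 for each of 4 groups. All mice were C57BL/6 adults of 10 to 11 weeks, and the labels name no treatment. GFRα1+ cells were the GFP+ cells of mice with an EGFP knock-in at *Gfra1*, a receptor subunit for the stem cell factor GDNF. NGN3+ and KIT+ cells both came from *Ngn3-EGFP* transgenic mice and were sorted as the GFP+ cells without and with KIT protein on their surface. Whole testes were those of wild-type littermates of the knock-in mice. GFRα1+ and KIT+ samples each came from 1 mouse and NGN3+ samples from 2 pooled mice, with 10000 to 20000 sorted cells a sample against 500000 cells for whole testes. GFP in the *Ngn3-EGFP* line persists after the promoter is used, so its GFP+ cells can include later progeny. Reporter line and fraction cannot be told apart in any comparison of GFRα1+ cells with the other fractions.

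KIT is a receptor tyrosine kinase of the type III class, and KITL, also called stem cell factor, is its ligand, which Sertoli cells present to germ cells in the tubule. Binding of KITL activates PI3-kinase, SRC-family and MAP kinase pathways, and spermatogonia need the receptor once they leave the undifferentiated state. SOHLH1 and SOHLH2 are germ cell transcription factors of the basic helix-loop-helix class, which bind DNA at E-boxes, and males that lack either have defects in spermatogonial differentiation. TAF4B is a gonad-enriched relative of TAF4, a subunit of the general transcription factor TFIID.

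Levels are given as log2 of the processed signal minus the array's 75th percentile, so that 0 is the 75th percentile of that array. That percentile stood at intensities of 318 to 675, and each array had 50.1% to 65.1% of its probes well above background. Replicates of a group correlated at 0.980 to 0.989 across probes. The arrays lay on 3 slides: slide 1 held GFRα1+ 1 and 2 with whole testes 1, slide 2 held GFRα1+ 3 and all NGN3+ and KIT+ arrays, and slide 3 held whole testes 2 and 3. Markers of undifferentiated spermatogonia summed to 217 to 232 times the 75th percentile in GFRα1+, 146 to 232 in NGN3+ and 39.4 to 48.1 in KIT+ cells, against 9.71 to 10.73 in whole testes. The reporter genes followed their sorts: *Gfra1* was highest in GFRα1+ cells and *Neurog3*, which encodes NGN3, in NGN3+ cells (5.23 ± 0.43, against 4.13 ± 0.21 in GFRα1+ and 2.77 ± 0.17 in KIT+ cells, SD, n = 3). All 12 spermatid markers were well above background on every NGN3+ and KIT+ array, and 11 of them on every GFRα1+ array. Their sum was 27.8 to 63.1 in GFRα1+, 1314 to 1607 in NGN3+ and 1571 to 1977 in KIT+ cells against 5125 to 6381 in whole testes. Spermatid marker levels were thus far higher in the fractions of the *Ngn3-EGFP* line than in GFRα1+ cells, and so was the sum of 8 peritubular myoid markers (4.32 to 5.31 in GFRα1+, 17.6 to 31.2 in NGN3+ and 16.3 to 21.3 in KIT+ cells). The smooth muscle actin gene *Actg2* made up most of the KIT+ sum (mean log2 levels of -2.10, 3.28 and 3.67 in the 3 fractions), while *Myl9* was at 1.86, 2.85 and 1.78. Their part in the differences below was not tested. In such bulk samples, fewer cells of a type and less RNA per cell cannot be told apart.

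**Figure D1:**
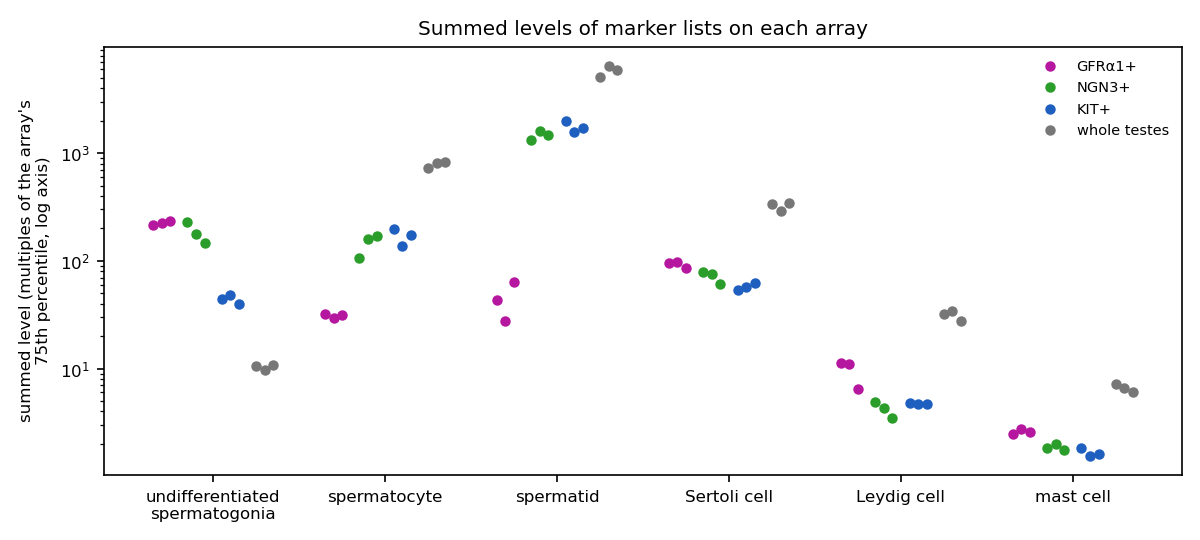
Summed levels of 6 marker lists on each of the 12 arrays, in multiples of the array's 75th percentile on a log axis, coloured by group with 1 point for each array. Spermatid markers sum to 1314 to 1977 in NGN3+ and KIT+ cells and to 27.8 to 63.1 in GFRα1+ cells, and Sertoli markers are highest in whole testes.

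Because SOHLH proteins bind E-boxes, the 250 bases before the start site of the receptor gene and of both factor genes are shown, 5′ to 3′ on the gene's strand, with E-boxes (CANNTG) in capitals and all else in lower case. The windows, from RefSeq and GRCm38.p6, are chr5:75574737-75574986 on the plus strand for *Kit*, chr2:25847249-25847498 on the minus strand for *Sohlh1* and chr3:55181794-55182043 on the plus strand for *Sohlh2*. For *Kit*, 2 windows are listed, and only the most upstream is described here.
Sohlh1: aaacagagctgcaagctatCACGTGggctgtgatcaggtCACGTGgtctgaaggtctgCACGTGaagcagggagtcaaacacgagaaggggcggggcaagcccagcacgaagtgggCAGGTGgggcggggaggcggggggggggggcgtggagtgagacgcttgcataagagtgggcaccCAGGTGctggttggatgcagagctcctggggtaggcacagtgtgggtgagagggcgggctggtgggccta
Sohlh2: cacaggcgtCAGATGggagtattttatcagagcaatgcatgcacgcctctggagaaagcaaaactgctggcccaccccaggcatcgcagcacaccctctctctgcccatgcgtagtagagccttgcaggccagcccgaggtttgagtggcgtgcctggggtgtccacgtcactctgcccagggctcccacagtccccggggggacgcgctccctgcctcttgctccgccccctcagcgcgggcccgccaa
Kit: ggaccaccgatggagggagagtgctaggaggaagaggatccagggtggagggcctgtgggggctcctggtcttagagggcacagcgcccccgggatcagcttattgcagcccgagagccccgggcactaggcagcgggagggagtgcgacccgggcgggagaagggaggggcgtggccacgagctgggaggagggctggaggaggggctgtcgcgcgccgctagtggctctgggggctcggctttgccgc
The *Sohlh1* window held 5 E-boxes, 3 of them with the canonical core CACGTG, which CANNTG includes. Both motifs read the same on either strand. The 3 canonical E-boxes began 231, 211 and 192 bases before the start and the other 2 began 134 and 70 bases before it. The *Sohlh2* window held 1 E-box, 241 bases before the start, and the *Kit* window and that of *Kitl* held none. Over all 32851 promoter windows of the same length, 66.2% held at least 1 CANNTG and 1.15% held at least 5, while 6.02% held at least 1 CACGTG and 0.0609% (20 windows) held at least 3. These matches describe the letters of the windows and are not evidence of binding.

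**Figure D2:**
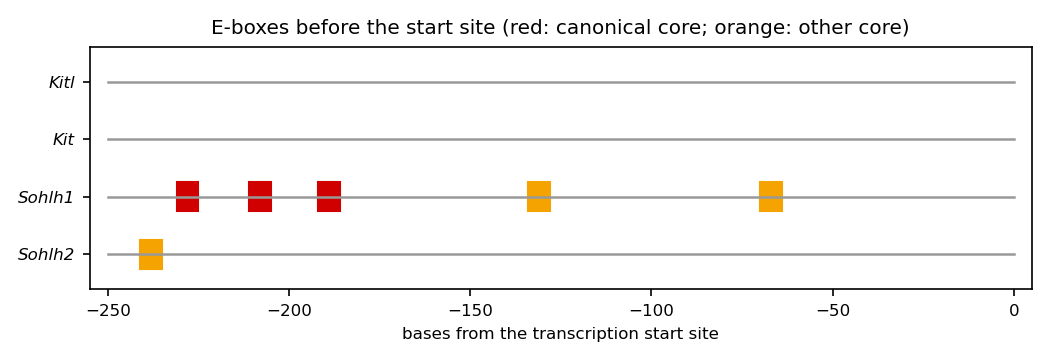
Positions of E-boxes in the 250 bases before the start site of *Kitl*, *Kit*, *Sohlh1* and *Sohlh2*, in bases from the start; red boxes are canonical cores and orange boxes other cores. *Sohlh1* holds 5 E-boxes, 3 of them canonical and between 231 and 187 bases before the start, and *Sohlh2* holds 1.

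The ligand gene *Kitl* was a whole-testis transcript on these arrays. Its probe (mm9 chr10:99558962-99559021) read -1.83, -2.36 and -2.39 in whole testes, well above background on all 3 arrays. It read -5.01, -4.61 and -4.68 in GFRα1+, -4.02, -5.01 and -4.68 in NGN3+ and -4.65, -5.26 and -5.76 in KIT+ cells, and was well above background on 0, 2 and 1 of the 3 arrays. All 9 sorted samples lay below all whole testes, and the sorted fractions overlapped each other. *Kitl* was not tested between sorted fractions, since no fraction had it above background on all 3 arrays. Against whole testes (mean -2.19) it was at least 4.21-fold lower in GFRα1+ (mean -4.77, adjusted p = 9.02e-06), 5.04-fold lower in NGN3+ (mean -4.57, 2.37e-05) and 6.45-fold lower in KIT+ cells (mean -5.22, 2.89e-06). These folds are bounds. On each sorted array they use the lowest signal that was well above background, or the *Kitl* signal itself where that was higher. *Kitl* entered these tests only through whole testes, the group where it was high. Sertoli markers, the genes of the cells that supply the ligand, summed to 291 to 341 in whole testes and 53.7 to 97.0 in the sorted fractions. Markers of peritubular myoid cells (167 to 191), Leydig cells (27.5 to 34.2) and endothelium (14.8 to 17.4) also summed higher in whole testes than on any sorted array. Those of macrophages and leukocytes did not (4.12 to 4.72, against 5.15 to 5.48 in GFRα1+ cells). The cell source of the *Kitl* signal was not tested. Of 18 Sertoli markers, 12 were above background on every GFRα1+, 16 on every NGN3+ and 15 on every KIT+ array. *Sox9*, which specifies Sertoli cells, stood at -1.31 ± 0.27 (SD, n = 3) in whole testes and -4.07 ± 0.15 in KIT+ cells, while the anti-Mullerian hormone gene *Amh* was above background on no array and the FSH receptor gene *Fshr* on no sorted array. *Tjp1*, a tight junction gene, and *Trf*, which encodes transferrin, went the other way, at 3.86 ± 0.14 and 3.77 ± 0.23 in GFRα1+ cells against 1.23 ± 0.088 and 1.64 ± 0.18 in whole testes.

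**Figure D3:**
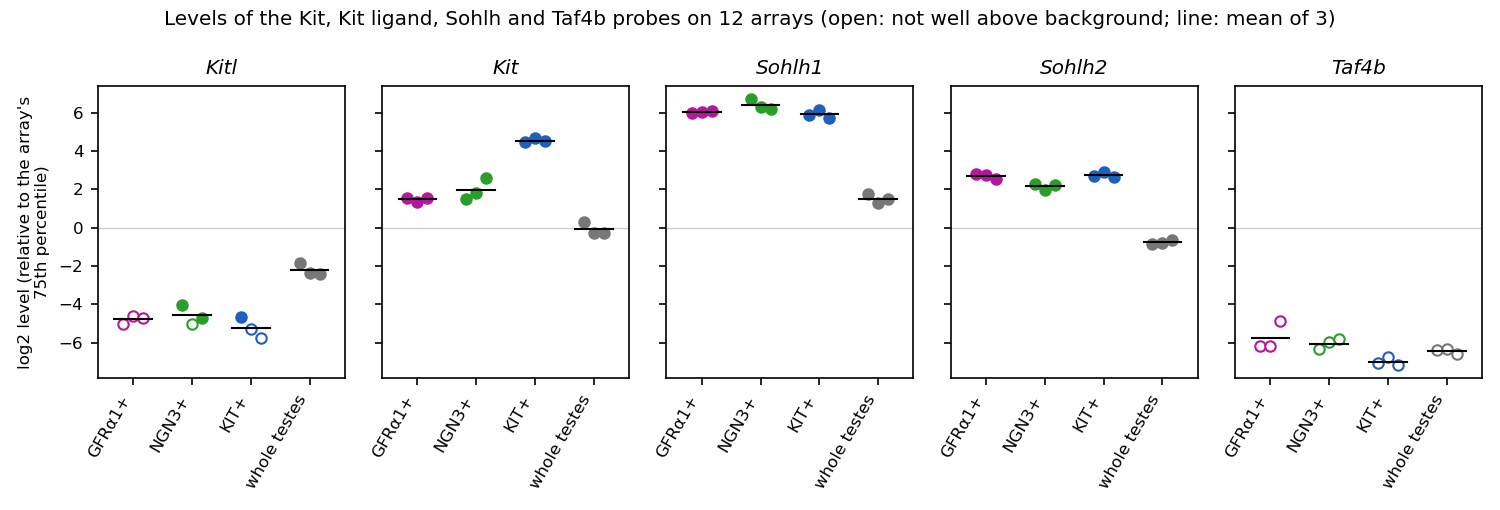
Log2 levels of the 5 genes on all 12 arrays, relative to the array's 75th percentile. Points are arrays (open where the probe was not well above background) and lines are means of 3. *Kitl* is highest in whole testes, *Kit* in KIT+ cells, *Sohlh1* and *Sohlh2* are high in all 3 sorted fractions, and *Taf4b* is open on every array.

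The receptor gene *Kit* was already transcribed in the least advanced fraction. Its probe (mm9 chr5:76052394-76052453, 2 spots an array) read 1.58, 1.36 and 1.57 in GFRα1+ cells, which were sorted without regard to KIT. It read 1.47, 1.82 and 2.60 in the NGN3+ cells, sorted as lacking KIT protein, and 4.46, 4.67 and 4.51 in the KIT+ cells. Whole testes read 0.29, -0.28 and -0.26, below every sorted sample. Spermatids make a truncated *Kit* transcript, and whether it adds to this probe's signal was not tested. The KIT+ samples lay far above the rest and close together, whereas the NGN3+ samples spread widely (mean 1.96 ± 0.58, SD, n = 3) and overlapped the GFRα1+ samples (1.5 ± 0.12).

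Since KIT protein was the sorting criterion, the higher *Kit* level of KIT+ cells, 5.99-fold over NGN3+ and 8.26-fold over GFRα1+ cells, describes the sort and is not a finding. NGN3+ cells differed from GFRα1+ cells by a log2 ratio of 0.46 (SE 0.25, 95% interval -0.11 to 1.03), and the adjusted p of 0.143 missed the threshold of 0.05. That difference rested on NGN3+ 3: it was 0.15 without it and 0.71 (adjusted p = 0.0288) without NGN3+ 1. NGN3+ cells were selected for lacking KIT protein and GFRα1+ cells were not, so sort and cell state cannot be told apart in this difference. Against whole testes, *Kit* was higher by 1.58 in GFRα1+ cells (SE 0.25, adjusted p = 1.07e-04). Other cells with KIT protein can add to a sort. Of the mast cell markers, carboxypeptidase A3 (*Cpa3*) and the IgE receptor subunit *Ms4a2* were above background on none of the 12 arrays. *Tpsab1* and *Fcer1a* were each above background on 1 KIT+ array and on no other array. Of 8 mast cell markers 2, *Tpsb2* and *Hdc*, were above background on all 12 arrays. The list summed to 1.56 to 1.81 in KIT+, 1.77 to 1.98 in NGN3+ and 2.46 to 2.74 in GFRα1+ cells and 6.06 to 7.24 in whole testes. Leydig cells also make KIT. Of 8 Leydig markers 5 were above background on no sorted array, among them the steroidogenic genes *Cyp11a1* and *Hsd3b1*. The other 3, *Cyp17a1*, *Nr5a1* and *Star*, were above background on every KIT+ array, and *Cyp17a1* stood at 3.08 ± 0.47 in GFRα1+, 1.36 ± 0.17 in KIT+ cells and 3.50 ± 0.19 in whole testes. The list summed to 6.40 to 11.2 in GFRα1+, 3.49 to 4.93 in NGN3+, 4.67 to 4.76 in KIT+ cells and 27.5 to 34.2 in whole testes. The part of other cells in the *Kit* signal was not tested.

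*Sohlh1* was high in all 3 sorted fractions. Its probe (mm9 chr2:25698525-25698584, minus strand) read 5.99, 6.05 and 6.08 in GFRα1+, 6.70, 6.32 and 6.17 in NGN3+ and 5.87, 6.14 and 5.73 in KIT+ cells. Whole testes read 1.76, 1.31 and 1.48. The sorted fractions differed from each other by far less than from whole testes, with the NGN3+ samples on top and not overlapping the other fractions. The log2 ratio to whole testes was 4.53 in GFRα1+, 4.88 in NGN3+ and 4.40 in KIT+ cells (SE 0.17 each, adjusted p of 4.58e-10, 2.61e-09 and 2.93e-09), or 21.1-fold to 29.5-fold. Between NGN3+ and GFRα1+ cells the log2 ratio was 0.36 (SE 0.16, 95% interval -0.0073 to 0.72, adjusted p = 0.0862). From NGN3+ to KIT+ cells *Sohlh1* fell by 0.48 (SE 0.16, adjusted p = 0.0463), a call lost within slide 2 (adjusted p = 0.0745). It was also lost without any 1 of NGN3+ 1, NGN3+ 2, KIT+ 1 or KIT+ 3, with values of -0.52 to -0.33. KIT+ and GFRα1+ samples overlapped and differed by -0.12 (95% interval -0.49 to 0.24, adjusted p = 0.507).

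*Sohlh2* was likewise a transcript of the sorted cells, with its lowest level in NGN3+ cells. Its probe (mm9 chr3:55013524-55013583) read 2.82, 2.76 and 2.53 in GFRα1+, 2.26, 1.99 and 2.25 in NGN3+ and 2.68, 2.93 and 2.62 in KIT+ cells. Whole testes read -0.83, -0.78 and -0.66. NGN3+ samples lay below both other fractions without overlap, and those 2 fractions overlapped. *Sohlh2* fell by 0.54 from GFRα1+ to NGN3+ cells (SE 0.13, adjusted p = 0.00939) and was higher by 0.58 in KIT+ than in NGN3+ cells (SE 0.14, adjusted p = 0.0106). KIT+ and GFRα1+ cells differed by 0.042 (95% interval -0.26 to 0.35, adjusted p = 0.795). GFRα1+ 3, the only GFRα1+ sample on the slide of the NGN3+ samples, was the lowest of its group. On that slide alone NGN3+ minus GFRα1+ came to -0.36. With 1 GFRα1+ sample there, slide and replicate spread cannot be told apart. Relative to whole testes *Sohlh2* was 11.0-fold higher in GFRα1+, 7.60-fold in NGN3+ and 11.3-fold in KIT+ cells (adjusted p of 4.81e-10, 6.17e-09 and 2.78e-09).

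**Figure D4:**
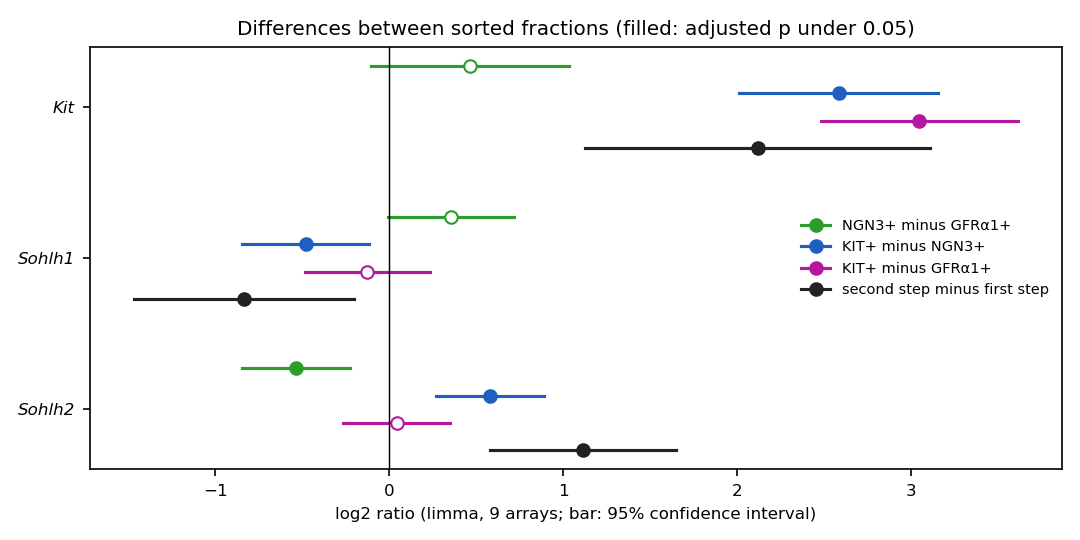
Log2 ratios between sorted fractions for *Kit*, *Sohlh1* and *Sohlh2* from limma on 9 arrays, with 95% confidence intervals and filled points where the adjusted p was under 0.05. *Kit* was itself the basis of the KIT+ and NGN3+ sorts. The ratios of *Sohlh1* and *Sohlh2* have opposite signs, at 0.36 (not called) and -0.54 from GFRα1+ to NGN3+ and at -0.48 and 0.58 from NGN3+ to KIT+ cells.

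The 2 factor genes differed in how their change from NGN3+ to KIT+ cells compared with that from GFRα1+ to NGN3+ cells, although *Sohlh1* did not pass between GFRα1+ and NGN3+ cells. The change from NGN3+ to KIT+ minus the change from GFRα1+ to NGN3+ was -0.84 for *Sohlh1* (SE 0.28, adjusted p = 0.0394) and 1.11 for *Sohlh2* (SE 0.23, adjusted p = 0.00597). The same NGN3+ arrays enter both changes, so a shift in those arrays alone moves the 2 changes in opposite directions. The *Sohlh1* value lost its call within slide 2 (-0.80, adjusted p = 0.125) and without any 1 of GFRα1+ 1, GFRα1+ 2, NGN3+ 1, NGN3+ 2, KIT+ 1 or KIT+ 3 (-0.91 to -0.53). The difference of the 2 probes within an array does not depend on how arrays are scaled. As a log2 value it was 3.17, 3.29 and 3.55 in GFRα1+, 4.44, 4.33 and 3.93 in NGN3+ and 3.19, 3.21 and 3.11 in KIT+ cells. Every NGN3+ sample lay above every other sorted sample, also above GFRα1+ 3 of the same slide. The difference was 0.89 larger in NGN3+ than GFRα1+ cells and 1.06 larger than in KIT+ cells. This separation follows from the levels of both probes given above. An exact permutation test gave p = 0.1 for NGN3+ against either other fraction. That is the smallest p that 3 against 3 samples allow, so the test cannot decide here.

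Of the 5 genes, 3 were tested between sorted fractions and 4 against whole testes, and these counts are to be read against all genes tested. From GFRα1+ to NGN3+ cells 1 of 3 passed (*Sohlh2*), where 56.4% of all 23787 genes tested did. The selection of NGN3+ cells for lacking KIT protein bears on *Kit* in that count. From NGN3+ to KIT+ cells 3 of 3 passed, *Kit* among them through the sort, against 34.5% of 24106 genes. Between KIT+ and GFRα1+ cells 1 of 3 passed (*Kit*) against 66.1%, and 3 of 3 differed between the 2 steps against 41.7%. In both counts *Kit* passed through the sort. Against whole testes all 4 passed in each fraction, where 87.5% of genes did for GFRα1+, 83.7% for NGN3+ and 84.9% for KIT+ cells, so that passing there says little about these genes. Of the 4, *Kitl* met the filter on dim probes only through whole testes. The median log2 ratio of all genes from GFRα1+ to NGN3+ cells was -0.19, and -0.020 when the percentile was taken only over probes that all arrays detected well above background. Calls over all genes split into 4764 higher and 8656 lower in the former and 5835 and 6089 in the latter. For the difference between steps they split into 5580 higher and 4522 lower, and 4129 and 5455 with the latter. Relative to the main median, *Kit* stood at 0.65, *Sohlh1* at 0.55 and *Sohlh2* at -0.35. With the other percentile *Sohlh1* was called higher in NGN3+ cells (0.53, adjusted p = 0.0140), *Sohlh2* stayed lower (-0.37, adjusted p = 0.0338) and *Kit* was not called (0.63, adjusted p = 0.0725).

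*Taf4b* could not be measured by its probe. The probe (mm9 chr18:15058722-15058781) was not well above background on any of the 12 arrays, with processed intensities of 4.29 to 12.02 and log2 levels of -7.16 to -4.85, so the filter on dim probes kept *Taf4b* out of every comparison. Without that filter it was called only between KIT+ and GFRα1+ cells (-1.26, SE 0.36, adjusted p = 0.0192), a ratio of signals of which none was well above background. Its relative *Taf4* was above background everywhere, at 2.28 ± 0.15 in GFRα1+, 2.10 ± 0.031 in NGN3+ and 2.60 ± 0.11 in KIT+ cells and -0.23 ± 0.16 in whole testes (SD, n = 3). *Taf4* was higher by 0.50 in KIT+ than in NGN3+ cells (SE 0.11, adjusted p = 0.00810). *Taf7l*, the germ cell paralogue of *Taf7*, stood at 6.16 ± 0.059, 5.97 ± 0.17 and 5.88 ± 0.12 in the 3 fractions and 3.02 ± 0.17 in whole testes, and passed at neither step.

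Among 25 genes of TFIID and TFIIA, 23 were tested at each step. From GFRα1+ to NGN3+ cells 3 were higher and 9 lower, when 20.0% of all genes tested were higher and 36.4% lower, and the list's median was -0.20 beside -0.19 for all genes. *Gtf2a1l*, a germ cell form of a TFIIA subunit, had the largest ratio at 4.998 (SE 0.31, adjusted p = 4.59e-06). Its level was -1.95 ± 0.27 in GFRα1+, 3.04 ± 0.58 in NGN3+ and 6.58 ± 0.15 in whole testes, an order that the spermatid markers share. *Taf7* fell by 1.25 and *Taf1*, the largest TFIID subunit, by 0.94 (adjusted p of 3.36e-05 and 1.95e-04). From NGN3+ to KIT+ cells 7 were higher and 2 lower, against 17.5% and 17.0% of all genes. *Taf10* rose by 0.89 and *Taf12* by 1.04 (both adjusted p = 7.31e-04), and *Gtf2a1* fell by 0.89 (6.78e-04).

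Genes studied with the SOHLH factors were mostly genes of the sorted cells: 12 of 12 tested were higher in GFRα1+ cells than in whole testes, and 13 of 13 in NGN3+ and in KIT+ cells, where 49.9%, 44.1% and 43.3% of all genes tested were higher. The list's medians were 3.36, 2.93 and 3.50 beside 0.39, 0.13 and 0.055 for all genes. The list of 15 holds *Kit*, *Sohlh1* and *Sohlh2* themselves, and *Gfra1*, whose reporter marked the GFRα1+ cells. Its remaining genes were too dim to be tested. *Nobox*, well above background on 2 of 3 whole-testis arrays, entered the NGN3+ and KIT+ counts only through the sorted cells. From GFRα1+ to NGN3+ cells 4 of 13 were higher and 6 lower, and from NGN3+ to KIT+ cells 6 were higher and 6 lower, with medians of -0.38 and 0.17 beside -0.19 and 0.048 for all genes. *Lhx8* and *Nobox* encode transcription factors of oocytes. *Lhx8* stood at 0.14 ± 0.16 in GFRα1+, 0.86 ± 0.27 in NGN3+ and 2.60 ± 0.29 in KIT+ cells against -2.82 ± 0.26 in whole testes, rising by 0.72 (adjusted p = 0.0111) and 1.74 (2.34e-04). *Nobox* reached -0.099 ± 0.22 in KIT+ cells, 2.31 above NGN3+ cells (adjusted p = 0.00158). Its levels in NGN3+ (-2.78 to -1.77) and GFRα1+ cells (-3.92 to -2.61, above background on 2 of 3 arrays) overlapped, and that call sat at the threshold (0.96, SE 0.37, adjusted p = 0.05). *Stra8*, a retinoic acid target needed for meiosis, rose by 1.91 from NGN3+ to KIT+ cells (3.29e-04), and *Zp3*, a zona pellucida gene, by 1.57 (4.69e-05). *Sox3*, a factor of committed progenitors, was highest in NGN3+ cells, rising by 0.62 (0.0195) and then falling by 0.98 (0.00379). *Figla*, the partner of oocyte helix-loop-helix factors, fell by 0.78 from GFRα1+ to NGN3+ cells (0.0201). *Ccnd2*, which encodes cyclin D2, fell by 2.29 (7.84e-06) and then by 0.72 (0.00839). *Gfra1* fell by 2.87 and then by 2.16, the former being the sorting reporter's gene.

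Regulators of *Kit* expression, 16 genes of which all were tested at both steps, showed 5 higher and 3 lower from GFRα1+ to NGN3+ cells (20.0% and 36.4% of all genes tested) and 4 higher and 7 lower from NGN3+ to KIT+ cells (17.5% and 17.0%). Their medians were -0.20 and -0.17, beside -0.19 and 0.048 for all genes. *Nanos2* and *Zbtb16*, which hold back differentiation, fell at both steps: *Nanos2*, an RNA-binding protein of stem cells, by 1.49 (4.51e-04) and 4.23 (1.38e-05), and *Zbtb16*, which encodes PLZF, by 0.45 (0.0318) and 1.94 (5.27e-05). *Nanos3* rose by 0.51 (0.0434) and then fell by 2.78 (2.91e-05). *Rarg*, which encodes a retinoic acid receptor, rose by 1.63 (4.69e-05) and fell by 1.15 (6.83e-04), and *Mitf*, which acts with KIT in melanocytes and mast cells, rose by 1.36 from NGN3+ to KIT+ cells (2.35e-04). *Dmrtb1* rose by 3.32 (3.19e-05) and *Gata2* by 1.68 (9.37e-06) from GFRα1+ to NGN3+ cells. *Gata1*, not well above background in GFRα1+ cells, was at least 4.90-fold higher in NGN3+ cells (5.99e-06). *Gata1*, *Gata2* and *Dmrtb1* stood higher still in whole testes, at 1.18 ± 0.12, 2.92 ± 0.21 and 4.78 ± 0.19 (SD, n = 3). The spermatid markers did so too. At the same step 10 of 16 Sertoli markers tested rose and 2 fell, with a median of 0.79. Of 17 Sertoli markers tested between NGN3+ cells and whole testes, 13 were higher in whole testes and 2 lower. The Sertoli sum went the other way at this step, being 85.3 to 97.0 on GFRα1+ arrays and 61.0 to 79.3 on NGN3+ arrays. The part of either cell type in these rises was not tested. *Runx1* and *Lmo2*, haematopoietic regulators, fell by 1.91 (6.21e-05) and 1.53 (2.46e-04) from NGN3+ to KIT+ cells.

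Of 64 genes of the signalling pathways below KIT, 61 were tested between NGN3+ and GFRα1+ cells: 6 were higher and 34 lower (20.0% and 36.4% of all genes tested), with a median of -0.38 beside -0.19. With the percentile of commonly detected probes the split was 10 higher and 27 lower. The guanine exchange factor gene *Sos2* fell by 1.02 (1.51e-04), the TEC-family kinase *Tec* by 1.27 (1.68e-04) and *Mmp9*, a protease, by 1.89 (7.65e-05). *Vav1*, an exchange factor of blood cells, was not well above background in GFRα1+ cells and at least 8.79-fold higher in NGN3+ cells (1.00e-04), and stood higher again in whole testes (2.36 ± 0.21). From NGN3+ to KIT+ cells 19 were higher and 14 lower (17.5% and 17.0% of all genes tested), with a median of 0.13 beside 0.048. The PI3-kinase catalytic subunit gene *Pik3cd* fell by 2.23 (2.11e-05), from 2.48 ± 0.23 to 0.25 ± 0.065. *Mapk3*, an ERK kinase gene, fell by 1.21 (2.41e-04) and *Pdk1* fell by 2.27 (2.49e-05). *Pdk1* encodes pyruvate dehydrogenase kinase, and the kinase of the KIT pathway is *Pdpk1*, which rose by 0.79 (9.38e-04). The list nevertheless holds *Pdk1* and counts it among the lower genes at both steps. The adaptor *Sh2b2* rose at both steps, by 1.104 (0.00139) and 1.72 (2.52e-04), and *Socs6*, which can turn KIT over, by 0.82 at the second (6.48e-04).

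**Figure D5:**
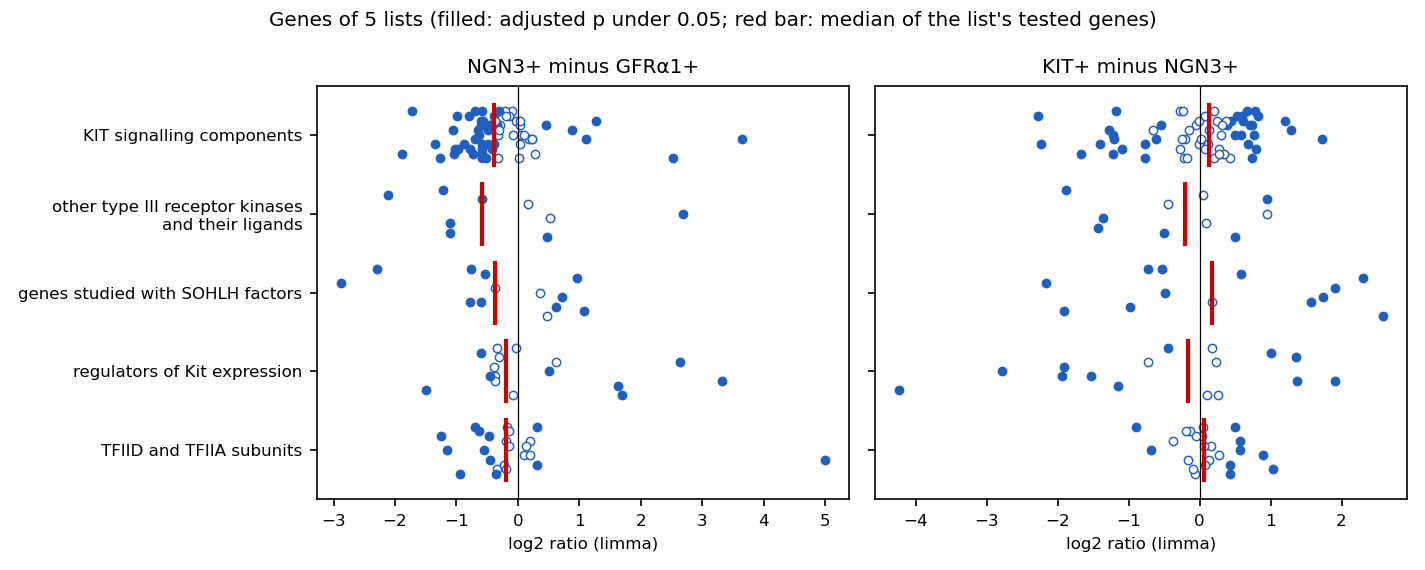
Log2 ratios of the tested genes of 5 lists from GFRα1+ to NGN3+ (left) and from NGN3+ to KIT+ cells (right); points are genes, filled where the adjusted p was under 0.05, and red bars are list medians. The median of the KIT signalling list is -0.38 on the left and 0.13 on the right, and *Gtf2a1l* lies at 4.998 on the left.

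Of the other type III receptor genes, *Pdgfra* fell at both steps, by 2.11 (1.14e-05) and 1.43 (2.50e-04), from -0.14 ± 0.27 in GFRα1+ to -2.25 ± 0.19 in NGN3+ and -3.68 ± 0.073 in KIT+ cells. *Csf1r*, the receptor for CSF1, fell by 1.102 (0.00787) and then differed by 0.090 (0.833). The summed markers of macrophages and other leukocytes were 5.15 to 5.48 in GFRα1+, 3.00 to 3.97 in NGN3+ and 3.44 to 4.06 in KIT+ cells. This list of 9 holds *Csf1r* itself, so its sum is not independent of the *Csf1r* fall. Of the 9 genes, 5 were above background on no GFRα1+ array, 2 on no NGN3+ array and 3 on no KIT+ array. Endothelial markers summed to 7.97 to 13.9, 4.84 to 8.06 and 4.33 to 4.62. The part of such cells in these falls was not tested. *Flt3* passed at neither step (0.16 and -0.45), and *Pdgfrb* was tested at neither, being dim in the sorted fractions and at -2.20 ± 0.27 in whole testes. Over the 11 receptor and ligand genes, 2 of 9 tested were higher and 5 lower from GFRα1+ to NGN3+ cells (20.0% and 36.4% of all genes tested), and 2 of 10 higher and 4 lower from NGN3+ to KIT+ cells (17.5% and 17.0%). Their medians were -0.59 and -0.20, beside -0.19 and 0.048 for all genes. *Csf1*, which encodes the CSF1R ligand, fell by 1.23 (0.00633) and was then at least 2.45-fold lower in KIT+ than NGN3+ cells (0.00122). *Pdgfa* fell by 0.59 (0.00248) and then rose by 0.95 (3.78e-04).

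The genes whose pattern over the 12 arrays lay closest to *Kit*, *Sohlh1* and *Sohlh2* were ranked among 18428 genes by the root mean square difference of mean-centred log2 levels. For *Sohlh2* these were *Anp32b* (0.0966), *Pidd1* (0.113), *Gm11663* (0.116), *Trip13* (0.122) and *Sgo1* (0.133). For *Sohlh1* they were *Dnd1* (0.127), *Kif26a* (0.146), *Nthl1* (0.169), *Pip4k2b* (0.171) and *Dclk2* (0.177), and the distance from *Sohlh1* to *Sohlh2* was 0.716. *Trip13*, a meiotic recombination and checkpoint gene, was at 4.68 in GFRα1+, 4.16 in NGN3+ and 4.68 in KIT+ cells, the dip that *Sohlh2* has. *Dnd1*, a germ cell RNA-binding protein gene, was at 4.84, 5.08 and 4.57. For *Kit* the closest included *Ppp1r1b* (0.223), *Arhgef26* (0.348), *Plk5* (0.354) and *Chrdl2* (0.371), and *Ppp1r1b* read -0.074, 0.45 and 2.70 in the 3 fractions and -1.70 in whole testes. These distances are descriptions over 12 arrays that share slides and groups.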

How the data were processed

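Agilent SurePrint G3 Mouse GE 8x60K arrays were labelled with Cy3 from 25 ng of RNA. The authors extracted spots with Agilent Feature Extraction (10.7.3.1, or 10.7.1.1 on slide 2, per the file headers) and deposited processed signals, an intensity on a linear scale after background subtraction. They also deposited a log2 table, which was compared with the scanner values and equalled log2 processed signal minus the 75th percentile within 0.001 after a constant per array, without gene centring. Its column medians were -3.84, -3.84 and -3.66 for GFRα1+, -3.56, -3.54 and -3.48 for NGN3+, -3.49, -3.63 and -3.61 for KIT+ and -3.45, -3.44 and -3.48 for whole testes. The study analysed the arrays in GeneSpring with a t-test and Benjamini-Hochberg correction.

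Here log2 processed signals minus each array's 75th percentile were used, without control and outlier spots. Probes were named through RefSeq (26519 by accession, 3791 by symbol, 716 by synonym, 24655 keeping the name in the files), and positions are as the file headers give them (mm9). Each gene was represented by its brightest probe on average, tested where well above background on all 3 arrays of a compared group. Tests used limma 3.58.1 in R 4.3.3 (lmFit, eBayes) with Benjamini-Hochberg adjustment over all genes tested, at an adjusted p under 0.05, on 9 arrays of sorted cells or, against whole testes, on all 12. Values in parentheses after a change are adjusted p-values. The number of arrays limits the precision. The code was tested on simulated data.

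Genes named were the 5 genes with every probe, the 5 nearest in pattern (left out for *Kitl* and *Taf4b*, dim in sorted cells), up to 5 per list with the smallest adjusted p at each step, and a set chosen by name. Some of these are given only in counts or are not reported here, and other list members by their role, chosen after their values were seen. The genes and lists were chosen with earlier results of these data known. Alternatives covered scaling, the deposited table, background correction, filters, outlier spots, slide, test, arrays in the fit, replicate block, left-out replicates and single probes.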

Additional observations from a re-analysis of the deposited data

How the results depend on the processing

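Against whole testes, every one of 257 recomputed values kept its direction and call. NGN3+ and KIT+ arrays shared no slide with whole testes, so those comparisons could not be made within a slide. The slide block reached them only through the GFRα1+ arrays. From GFRα1+ to NGN3+ cells, the genes called numbered 2 instead of 1 with quantile normalization, with the percentile of commonly detected probes, or with normexp on median signals, where *Sohlh1* became called (0.70, 0.53 and 0.57). They numbered 0 with slide as a block or within slide 2, where *Sohlh2* was -0.36 in both and no longer called. The *Sohlh1* fall from NGN3+ to KIT+ cells kept its size of -0.48 but lost its call without a filter on dim probes (adjusted p = 0.0883), with slide as a block (0.0545), within slide 2 (0.0745) and in the methods' t-test (0.154). The *Sohlh1* difference between steps lost its call with no filter (-0.84, adjusted p = 0.0632), slide as a block or within slide 2 (-0.80 in both, 0.0958 and 0.125). Between KIT+ and GFRα1+ cells *Sohlh1* turned to 0.19 with quantile normalization, 0.0019 with the other percentile and 0.093 with normexp, and 2 genes were called without a filter, *Taf4b* being added. The causes were not tested.

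Leaving out single replicates gave 1 to 2 called genes from GFRα1+ to NGN3+ cells, with *Kit* at 0.15 to 0.71. *Sohlh1* ran from -0.59 to -0.33 from NGN3+ to KIT+ cells, uncalled without NGN3+ 1 or 2 or KIT+ 1 or 3, and from -1.06 to -0.53 for the difference between steps, uncalled without GFRα1+ 1 or 2, NGN3+ 1 or 2 or KIT+ 1 or 3. *Sohlh2* ran from -0.051 to 0.10 between KIT+ and GFRα1+ cells. Of 360 recomputed list counts, 40 moved over 1.5 times. From GFRα1+ to NGN3+ cells these were the higher genes of the type III receptor list (10 times, to 0 to 1), of TFIID and TFIIA (8 times, to 1 to 5), of the SOHLH list (2 times, to 1 to 2) and of KIT signalling (2 times, to 10), and the lower genes of the *Kit* regulators (5 times, to 1 to 5), of the type III receptor list (2 times, to 3), of the SOHLH list (1 time, to 3) and of TFIID and TFIIA (1 time, to 5). From NGN3+ to KIT+ cells they were the higher genes of the type III receptor list (8 times, to 1) and the lower genes of the SOHLH list (1 time, to 3).

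The replicate numbers do not pair the samples: deviations of same-numbered samples correlated at -0.55 to 0.26. Differently numbered NGN3+ and KIT+ samples correlated at -0.34 to 0.54, the highest being KIT+ 2 with NGN3+ 1 (0.54) and KIT+ 1 with NGN3+ 2 (0.46). Whether such samples share a preparation was not tested, and a block by replicate number cannot account for pairs under other numbers. With the replicate block, 2 of 24 member results lost their call, *Sohlh1* from NGN3+ to KIT+ cells (-0.48, adjusted p = 0.0712) and *Sohlh1* between steps (-0.84, adjusted p = 0.0605), and calls over all genes from NGN3+ to KIT+ cells went from 4219 higher and 4104 lower to 3499 and 3630. Signal over background limits *Taf4b* throughout and *Kitl* in sorted cells.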
